A study of Mus musculus with 2 samples.

Results

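The 10 genes described here, which mark endoderm, were followed in mouse embryoid bodies with and without the transcription factor subunit Elongin A: the regulators Foxa1, Foxa2, Foxa3, Gata4, Gata6 and Sox17, and the secreted products Afp, Fga, Fgb and Fgg. They were taken as the probes whose only annotated gene symbol was 1 of these 10 names, which gave 10 probes, 1 for each gene, among 13697 genes with a probe of 1 symbol on an array of 32440 probes. Elongin A is the subunit through which the Elongin complex stimulates elongation by RNA polymerase II. Embryoid bodies are balls of cells that form when embryonic stem (ES) cells differentiate in suspension. The groups were 1 array of bodies from Elongin A+/+ ES cells and 1 array of bodies from Elongin A-/- ES cells. Both had received 2 µM retinoic acid for 4 days, in medium with serum and N2 supplement, and there was no array without retinoic acid. The labels do not give the number of ES cell clones or of pooled cultures. The comparison asks how the levels of these genes differ between the genotypes after this treatment.

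Endoderm is the germ layer of gut, liver and lung, and related extraembryonic layers (visceral and parietal endoderm) line the yolk sac. Forced GATA6 or GATA4 moves ES cells to the extraembryonic layers, and SOX17 is needed for definitive endoderm. FOXA proteins open liver and gut enhancers, to which HNF1 and other factors also bind. The mature products of such cells include alpha-fetoprotein and fibrinogen. Most of the regulators are not restricted to endoderm. FOXA1 and FOXA2 also act in the floor plate of the neural tube. GATA4 and GATA6 also act in heart, and SOX17 in arterial and blood-forming endothelium.

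With 1 array per genotype no difference could be tested, and an effect of genotype cannot be told apart from one of the cell line, the culture or the array. Values are intensities after quantile normalisation, and differences are log2 values of the Elongin A-/- array minus the Elongin A+/+ array. The floor is the array median, 1.03. A value under it was set to it for the difference, which is then a bound, and a gene counts as measured when either array had it above the floor. A median intensity near 1 was also seen in the deposited values (1.02 and 1.03), with highest values of 4352 and 3475. Probes of the same gene disagreed with an SD of 0.43 on the log2 scale (95% interval 0.39 to 0.47, 224 genes), and of 0.55 (0.44 to 0.75, 29 genes) where the brighter array lay between 2.65 and 10.6, the range of the measured endoderm genes described here. The probe of Eloa, the Elongin A gene, had 3.87 on the Elongin A+/+ array and 3.57 on the Elongin A-/- array, and since the sources do not say whether it lies in the deleted part, it does not check the labels. Neural progenitor genes were measured in 13 of 13 cases named on the arrays, beside 9568 of 13697 over all genes. The bodies thus held RNA of neural genes as well. In bulk RNA fewer cells of a type and less RNA per cell cannot be told apart.

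The sequences before the transcription starts of the 4 secreted products are shown because the 3 fibrinogen genes lie side by side on chromosome 3 and yet differed on these arrays. RefSeq windows (GRCm38.p6) were matched for 7 of the 10 genes. Each line gives the 250 bases before the start in 5′ to 3′ direction: Fga at chr3:83025903-83026152 on the plus strand, Fgb at chr3:83049864-83050113 on the minus strand, Fgg at chr3:83007474-83007723 on the plus strand and Afp at chr5:90490464-90490713 on the plus strand. Capitals mark matches, on either strand, to short motifs of HNF1, forkhead, GATA and SOX factors. The HNF1 motif was GTTAAT, the core of its binding site. The forkhead motif was TGTTTAC or, with 1 other letter, TGTTTGC. For GATA factors it was AGATAA or, with 1 other letter, TGATAA. For SOX factors it was ACAATG.
Fga: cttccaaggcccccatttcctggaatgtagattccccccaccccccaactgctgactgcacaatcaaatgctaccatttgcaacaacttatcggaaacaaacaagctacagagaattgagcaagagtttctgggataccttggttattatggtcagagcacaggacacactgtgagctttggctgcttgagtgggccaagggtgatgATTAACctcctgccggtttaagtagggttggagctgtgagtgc
Fgb: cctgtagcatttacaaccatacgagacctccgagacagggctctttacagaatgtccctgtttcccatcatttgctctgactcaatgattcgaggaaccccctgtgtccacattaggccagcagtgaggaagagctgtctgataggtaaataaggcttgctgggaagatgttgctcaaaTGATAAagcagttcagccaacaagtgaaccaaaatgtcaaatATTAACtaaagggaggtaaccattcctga
Fgg: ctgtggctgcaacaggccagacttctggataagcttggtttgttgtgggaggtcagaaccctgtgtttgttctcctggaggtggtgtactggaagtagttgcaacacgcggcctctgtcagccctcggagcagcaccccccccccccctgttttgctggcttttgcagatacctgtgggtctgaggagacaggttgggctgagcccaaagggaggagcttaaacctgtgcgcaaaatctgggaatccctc
Afp: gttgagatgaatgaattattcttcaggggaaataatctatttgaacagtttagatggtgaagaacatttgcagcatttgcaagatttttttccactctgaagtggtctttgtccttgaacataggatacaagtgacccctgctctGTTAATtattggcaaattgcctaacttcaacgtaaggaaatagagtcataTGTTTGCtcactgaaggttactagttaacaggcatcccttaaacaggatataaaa

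The HNF1 motif was found before Fga (bases 43 to 38 before the start), Fgb (29 to 24) and Afp (105 to 100), and not before Fgg. Of 32851 windows of the same length over all genes in the table, 6.43% held it. The Afp window also held a forkhead motif at bases 55 to 49, which 7.29% of windows held, and the Fgb window a GATA motif at bases 71 to 66, which 16.6% held. The SOX motif, held by 10.7% of windows, was in none of the 4. Among the regulators, the Foxa1 window held a forkhead motif at bases 141 to 135, and the most downstream of 3 Foxa2 windows held an HNF1 motif at bases 176 to 171 and a GATA motif at bases 183 to 178. These matches are letters in a window, and binding was not measured here.

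Of the 10 genes, 6 were measured: Foxa1, Foxa2, Gata6 and Sox17 above the floor on both arrays, Afp on the Elongin A+/+ array only and Fga on the Elongin A-/- array only. Over all genes with a probe of 1 symbol, 9568 of 13697 were measured. Foxa1, Foxa2 and Afp were lower on the Elongin A-/- array, and Gata6, Sox17 and Fga were higher. By at least 2-fold 1 gene was higher, Fga, and 1 was lower, Afp. As background, of all 9568 measured genes 6.76% passed 2-fold in the higher direction and 5.97% in the lower. Among the 2834 measured genes whose brighter array lay in the range of these endoderm genes, the shares were 13.2% and 11.5%. Genes in that range spread more widely: 75.3% lay within 2-fold, beside 87.3% of all measured genes. The share given below with each endoderm gene is over all measured genes and is not matched for brightness. Higher genes made up 53.1% of all genes at least 2-fold apart, and 64.1% with the values as deposited, a setting under which Sox17 also passed 2-fold (1.01). The median over the 6 measured endoderm genes was -0.02, and that over all measured genes was also -0.02.

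**Figure D1:**
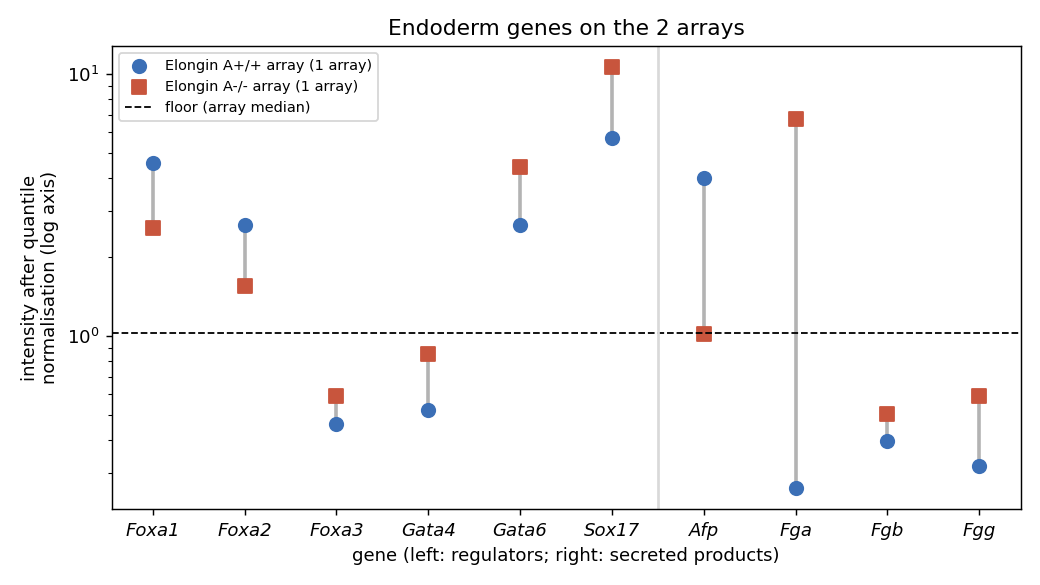
Intensity of each of the 10 endoderm genes on the Elongin A+/+ array (circles) and the Elongin A-/- array (squares), after quantile normalisation and on a log axis, with regulators on the left and secreted products on the right. The dashed line is the floor of 1.03; Foxa3, Gata4, Fgb and Fgg lie under it on both arrays, and the grey line between the points of Fga is the longest, from 0.263 to 6.71.

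Foxa1, a pioneer factor of endoderm and of floor plate, had an intensity of 4.59 on the Elongin A+/+ array and 2.58 on the Elongin A-/- array (4.32 and 2.73 as deposited). Its level was lower on the Elongin A-/- array, with a log2 difference of -0.83 or 1.78-fold, and 18.1% of measured genes were at least as far apart in either direction. Foxa2, the paralogue that node, floor plate and definitive endoderm share, had 2.65 and 1.56 (2.51 and 1.62 as deposited). It was lower by a similar margin, with a log2 difference of -0.77, and 20.4% of measured genes were at least as far apart. Both differences exceeded the SD of 0.55 between probes at this level by less than a further SD. Their direction held under the other scalings and when chromosome medians were subtracted. Foxa3, the paralogue most tied to liver and gut, had 0.464 and 0.589, under the floor on both arrays.

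Floor plate genes were looked at beside Foxa1 and Foxa2, since that tissue expresses both. Of 13 floor plate genes named on the arrays 7 were measured, and none was 2-fold apart in either direction (2 were lower when the 25th percentile was the floor or none was set). Their median was -0.27. The summed intensity of the floor plate genes was 37.2 on the Elongin A+/+ array and 29.3 on the Elongin A-/- array. Most of it came from 1 gene, Gli1 (24.5 and 20.4), named after its value was seen. The genes furthest apart went both ways. Spon1, which encodes the secreted F-spondin, had 1.46 and 2.13, and Lmx1a, a factor of midbrain floor plate and roof plate, had 0.814 and 1.39. Slit2, an axon repellent, had 1.48 and 0.635, and Nkx6-1, a ventral neural factor, had 1.61 and 1.27. Shh, the floor plate signal itself, named after its value was seen, had 1.29 and 0.702. The part of floor plate cells in the lower Foxa1 and Foxa2 values was not tested.

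Gata6, a driver of primitive endoderm and a factor of heart mesoderm, had an intensity of 2.65 on the Elongin A+/+ array and 4.40 on the Elongin A-/- array (2.51 and 4.68 as deposited). The Elongin A-/- array was higher by a log2 difference of 0.73, or 1.66-fold, and 21.9% of measured genes were at least as far apart. Gata4, its partner in both tissues, had 0.524 and 0.858, both under the floor, so no direction is given for it. Of the 8 genes in the list of GATA factors and their FOG cofactors, 6 were measured. Past 2-fold, 2 were higher (0 with a 75th percentile floor) and 1 was lower. Gata5, expressed in heart and gut endoderm, had 0.652 and 2.41, at least 2.35-fold higher. Zfpm2, the FOG2 cofactor of GATA4 in heart, had 0.790 and 3.22, at least 3.13-fold higher. Zfpm1, the FOG1 cofactor of blood, had 11.4 and 21.0. Gata3, a factor of trophoblast, neurons and lymphocytes, was the lower one, from 16.4 to 7.05. Gata2, a factor of blood progenitors and neurons, differed little (12.5 and 14.5), and Gata1, the red cell factor, was under the floor on both arrays (0.86 and 0.55).

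Cardiac genes were looked at beside Gata6. Of 13 named on the arrays 6 were measured, 1 at least 2-fold higher and 2 at least 2-fold lower, with a median of -0.28 and a sum of 32.2 and 24.4. That median turned to 0.16 when the 25th percentile was the floor and to 0.20 when no floor was set, and in both cases 3 genes were at least 2-fold higher and 2 lower. With a 75th percentile floor no cardiac gene was 2-fold apart. Nkx2-5, a cardiac regulator, was higher (3.66 and 8.01), while Isl1, a factor of heart progenitors and motor neurons (10.03 and 2.24), and Actc1, cardiac actin (3.31 and 1.03), were lower. Nppa, which encodes atrial natriuretic peptide, had 10.01 and 6.04. The heart muscle genes Tnnt2 and Myl7, chosen as such after their values were seen, were under the floor on both arrays.

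Sox17 had an intensity of 5.71 on the Elongin A+/+ array and 10.6 on the Elongin A-/- array (5.45 and 10.97 as deposited). The Elongin A-/- array was higher by a log2 difference of 0.90, or 1.86-fold, and 15.8% of measured genes were at least as far apart. Its paralogues Sox7 and Sox18 were higher by wider margins. Sox7, expressed in primitive endoderm and endothelium, had 1.25 and 14.9, or 11.9-fold. Sox18, an endothelial factor, had 0.557 and 5.49, at least 5.35-fold. All 3 SoxF genes were thus higher on the Elongin A-/- array, and their median was 2.42, or 0.90 when the 75th percentile was the floor.

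Endothelial and blood progenitor genes were higher on the same array. Of 15 named on the arrays 11 were measured, and 10 of these passed 2-fold in the higher direction and none in the lower. Their median was 2.64. When the 75th percentile was the floor, 5 passed and the median was 1.36. Their summed intensity was 17.2 on the Elongin A+/+ array and 195 on the Elongin A-/- array. Cldn5, a tight junction protein of endothelium, had 1.56 and 60.2, and Kdr, the VEGF receptor, 2.23 and 54.4. Tal1, a factor of blood and endothelial progenitors, had 0.876 and 10.8, and Hbb-bh1, an embryonic globin, 0.873 and 8.29. The endothelial genes Cdh5 (0.289 and 0.613), Tie1 (0.471 and 0.951) and Erg (0.245 and 0.361), named after their values were seen, were under the floor on both arrays. Pecam1 (0.667 and 4.13), Tek (0.627 and 4.83) and Esam (0.386 and 7.28), endothelial genes also named after their values were seen, were above it on the Elongin A-/- array only. Sox18 is in this list as well as among the SoxF genes. The part of such cells in the higher Sox17 value was not tested.

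**Figure D2:**
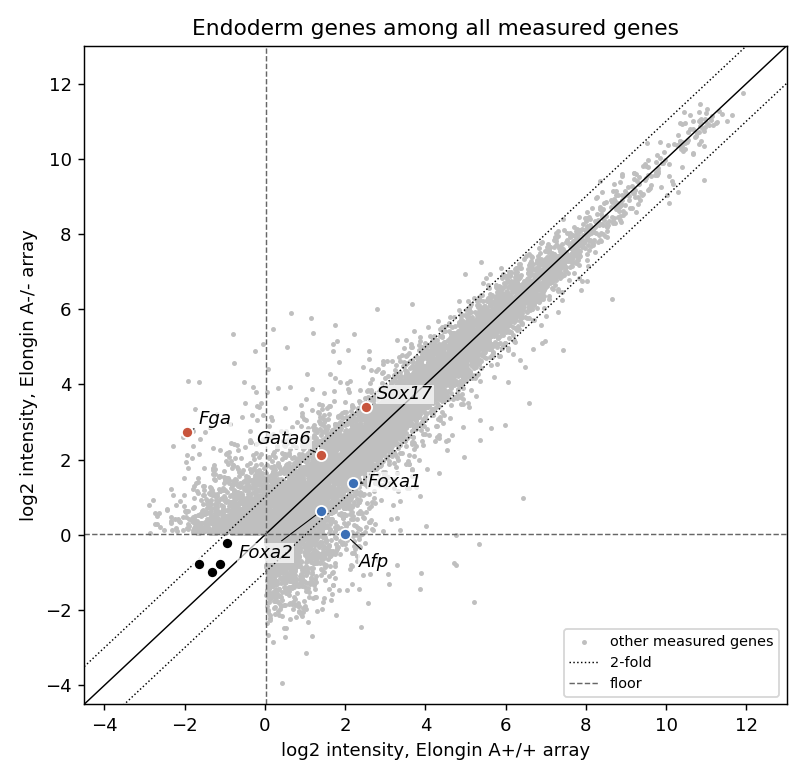
Log2 intensity of each measured gene on the Elongin A+/+ array (horizontal axis) and the Elongin A-/- array (vertical axis), with the endoderm genes as large points: red where higher on the Elongin A-/- array, blue where lower, black for the 4 under the floor on both. Foxa1, Foxa2, Gata6 and Sox17 lie between the dotted 2-fold lines, and Fga stands to the left of the floor line, at 0.263 against 6.71.

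Among the secreted products, Afp and Fga went opposite ways. Afp, the fetal relative of albumin made by visceral endoderm and fetal liver, had an intensity of 3.99 on the Elongin A+/+ array and 1.01 on the Elongin A-/- array (3.75 and 1.02 as deposited). The second value lay just under the floor, so Afp was at least 3.89-fold lower. Of all measured genes, not matched for brightness, 2.23% were at least as far apart. The other albumin family genes named on the arrays gave no measured value: Alb, albumin, had 0.533 and 0.392, and Afm, afamin, 0.565 and 0.374. Both lie next to Afp on chromosome 5 in the gene order of GRCm38.p6.

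Fga, the fibrinogen alpha chain, had an intensity of 0.263 on the Elongin A+/+ array and 6.71 on the Elongin A-/- array (0.276 and 7.07 as deposited). It lay well under the floor on the first array and above it on the second, and was at least 6.53-fold higher. Of all measured genes, not matched for brightness, 0.742% were at least as far apart. The size of the bound follows the floor. The log2 difference was 2.71 with a median floor, 3.70 with a 25th percentile floor and 0.37 with a 75th percentile floor. Fgb, the beta chain, had 0.398 and 0.505, and Fgg, the gamma chain, 0.320 and 0.590. Neither passed the floor on either array, so the chains that join with Fga in the clotting protein, and that flank it in the genome, were under the floor on the array where Fga was above it. Each chain has 1 probe, and the Fga value therefore had no second probe to set it against.

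Other liver plasma proteins and clotting factors were mostly under the floor. Of 21 named on the arrays 7 were measured, 1 of them past 2-fold (higher), and 14 were under the floor on both arrays. Over all 13697 genes, 4129 were under it on both arrays. The median of the 7 was 0.58 (0.15 when the 25th percentile was the floor, 1.25 without any floor, and 4 genes were at least 2-fold higher in both cases). With a 75th percentile floor none was measured. Fgl2, a fibrinogen-like prothrombinase also made by immune and endothelial cells, was the higher one, with 1.49 and 3.55. F10, clotting factor X (0.185 and 1.61), and F5, clotting factor V (0.432 and 1.54), were above the floor on the Elongin A-/- array only, by less than 2-fold. Crp, C-reactive protein (1.28 and 1.99), was above it on both arrays and higher on the Elongin A-/- array by less than 2-fold.

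In the wider endoderm programme more genes were higher than lower on the Elongin A-/- array. Besides the 10 genes, 103 genes of the 9 endoderm lists were named on the arrays and 67 were measured. Of these 12 were at least 2-fold higher and 6 at least 2-fold lower. Over all measured genes the shares were 6.76% and 5.97%. Among measured genes in the brightness range of the measured endoderm genes described here they were 13.2% and 11.5%. The 67 genes were not matched to either background by brightness. The counts of these lists were 19 and 10 when the 25th percentile was the floor or none was set, and 4 and 1 when the 75th percentile was. Their median was 0.35, beside -0.02 over all measured genes, and 44 of the 67 were higher by any margin, beside 48.4% of all measured genes. The higher ones include Sox18, which is also in the endothelial list, and Sox7, which endothelium also expresses. Zfpm2 among the higher ones and Gata3 among the lower ones were counted as genes of the GATA list. Genes of chromosomes 8 and 11 had medians of 0.43 and 0.41 on these arrays and those of chromosome 6 one of -0.27, whereas the chromosomes of the 10 genes had medians of -0.13 to -0.01. Without genes on chromosomes 6, 8 and 11 the median of the wider programme was 0.24, with 10 higher and 5 lower.

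Products of parietal endoderm, the layer that lays down a thick basement membrane, were higher for 10 of the 11 that were measured. The higher ones past 2-fold numbered 4, and 1 was lower by more than 2-fold. Their median was 0.88, and their sum was 131 and 253. Among the first were Krt19, a keratin (2.26 and 10.01), Plat, tissue plasminogen activator (9.81 and 36.2), and Nid1, the basement membrane protein nidogen (2.54 and 8.18), and Srgn, serglycin, was the lower one (3.16 and 0.696). Krt19 lies on chromosome 11 and Plat on chromosome 8. So do Sparc, on chromosome 11 (14.0 and 26.6), and Col4a1 (15.8 and 28.5) and Col4a2 (29.9 and 49.5), on chromosome 8. These were higher by less than 2-fold and are named for their chromosomes. Without chromosomes 6, 8 and 11 the list had 2 genes at least 2-fold higher and a median of 0.81. With the values as deposited it had 6, and with a 75th percentile floor 2 higher and 0 lower. Basement membrane genes are also made by endothelium and mesenchyme, and the part of those cells was not tested.

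Visceral endoderm and yolk sac products had a median of 0.33, and 2 of 12 measured genes passed 2-fold, both of them higher. A further 7 were under the floor on both arrays. With a 75th percentile floor 1 gene was 2-fold higher. Ttr, transthyretin, had 0.990 and 3.42, at least 3.34-fold higher, in the direction opposite to Afp. Apoe, apolipoprotein E, which many cell types make, had 47.3 and 99.5. Apoa2, an apolipoprotein (0.967 and 1.89), was above the floor on the Elongin A-/- array only. Slc39a4, a zinc transporter of visceral endoderm and gut (1.60 and 2.83), was above it on both arrays. Rbp4, the retinol carrier, chosen after its value was seen, had 5.09 and 3.16. Apoa1 and Amn, typical of visceral endoderm and also chosen after their values were seen, were under the floor on both arrays.

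Definitive endoderm and gut epithelial genes had a median of -0.21, and 2 of 12 measured genes passed 2-fold, both of them lower. That median turned to 0.14 when the 75th percentile was the floor, and then no gene was 2-fold apart. Trh, an early marker of definitive endoderm and also a neuropeptide gene, had 3.35 and 0.717. Cxcr4, a chemokine receptor used to sort definitive endoderm, had 2.42 and 0.471. Sox2 (72.2 and 39.5) and Epcam (70.6 and 42.2), which neural and undifferentiated cells share with foregut or epithelium, were lower by less than 2-fold.

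Other endoderm transcription factors were divided. Of 11 measured 3 passed 2-fold in the higher direction and 2 in the lower. Their median was 0.05, and its sign turned when arrays were centred on genes above the floor (-0.01) or a 25th percentile floor was used (-0.10). The higher ones were Sox7, Gata5 and Sall4, a factor of ES cells and primitive endoderm (2.93 and 7.003). The lower ones were Cdx2, the hindgut and trophoblast factor (2.91 and 0.783, at least 2.84-fold), and Prox1, a factor of liver, lymphatics and neural progenitors, chosen after its value was seen (3.48 and 1.72, or 2.02-fold). Prox1 was within 2-fold under several settings, values as deposited among them, which left 1 lower gene, and with a 75th percentile floor 1 gene was 2-fold higher and none lower. Genes of Nodal signalling, which induces endoderm, had no gene 2-fold apart among 9 measured, and 2 in each direction when the 25th percentile was the floor or none was set. Their median of -0.04 was 0.13 with the values as deposited. Lhx1, a target of Nodal and a neuronal factor, had 5.08 and 2.79, and Foxh1, a Nodal pathway transcription factor, had 10.2 and 15.7. Nodal itself had 1.42 and 0.434, and its antagonist Lefty2 0.627 and 1.48. Eomes and Cer1, an inducer and a product of early endoderm chosen after their values were seen, were under the floor on both arrays.

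**Figure D3:**
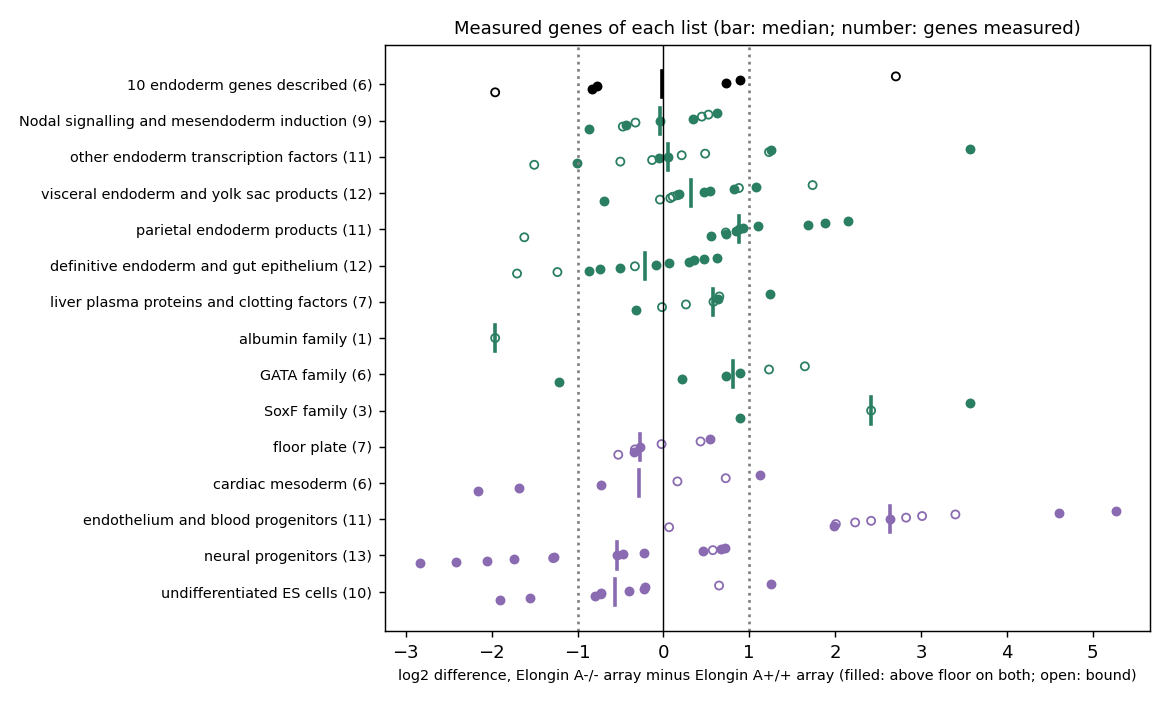
Log2 difference (Elongin A-/- array minus Elongin A+/+ array) of each measured gene of each list, with endoderm lists in green, lists of other cell types in purple and the 10 endoderm genes in black; filled points were above the floor on both arrays, open points are bounds, and bars are medians. Endothelial and blood progenitor genes lie furthest to the right (median 2.64) and parietal endoderm products also lie to the right (0.88), while the 10 genes lie on both sides of 0.

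Of the remaining cell types, neural progenitor genes had a median of -0.54, with 6 of 13 at least 2-fold lower and none higher, and a sum of 242 and 198. With a 75th percentile floor 3 were lower and the median was -0.17. Olig3, Zic2, Fabp7 and Neurog2, factors and markers of such progenitors, were the furthest apart (40.8 and 5.71 for Olig3). By less than 2-fold 4 of the 13 were higher. Among them Hes5, the brightest of the list and named after its value was seen, had 75.6 and 125. Genes of undifferentiated ES cells had a median of -0.56, with 2 of 10 at least 2-fold lower (Klf5 and Zfp42), 1 higher (Dppa4), and a sum of 58.6 and 45.6. With that higher floor none was 2-fold apart and the median was -0.22. Since some lists had a median above 0 and others below it, any measured endoderm gene shares its direction with some list. Whether other cell types had a part in the values of the endoderm genes was not tested.

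The direction of each of the 6 measured endoderm genes held under the other scalings and when chromosome medians were subtracted. The other settings (floor, pseudocount, probe averaging, dropped genes) could not turn it, since each of these genes has 1 probe. They keep the order of its values on the arrays. The log2 difference of Foxa1 lay between -0.83 and -0.64, that of Foxa2 between -0.77 and -0.51, that of Gata6 between 0.56 and 0.90 and that of Sox17 between 0.79 and 1.01. That of Afp lay between -1.99 and -1.30, and that of Fga between 0.37 and 4.67. The regulators therefore stayed near 2-fold or under it, and the value of Fga was the most dependent on how dim signals were treated.

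**Figure D4:**
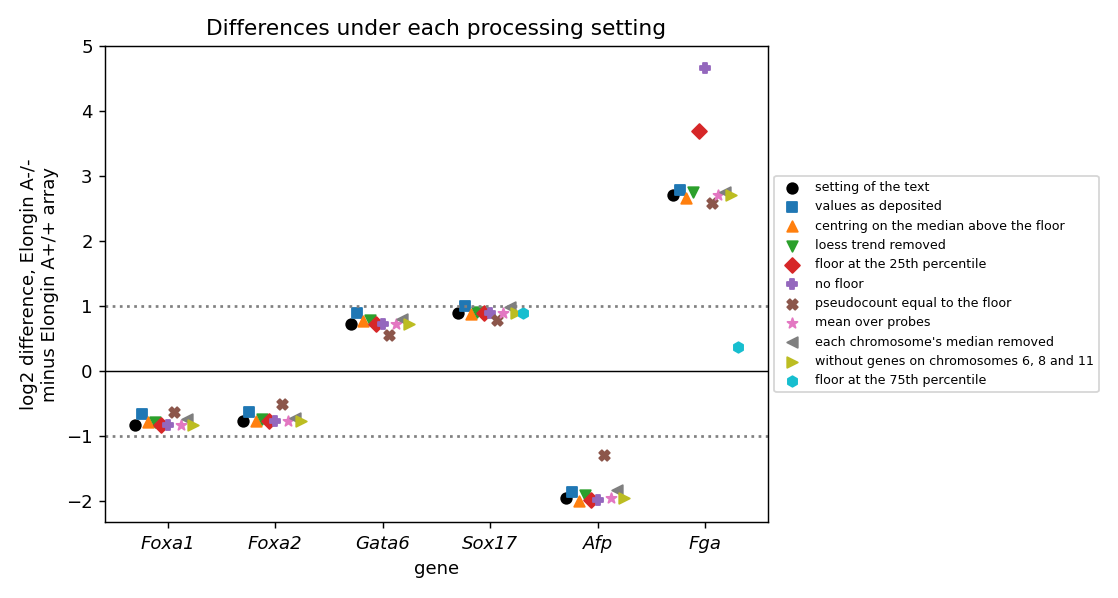
Log2 difference (Elongin A-/- array minus Elongin A+/+ array) of the 6 measured endoderm genes under the setting of the text (black) and each alternative (symbols in the legend), with dotted lines at 2-fold. The points of Foxa1, Foxa2, Gata6 and Sox17 lie close together, while those of Fga spread from 0.37 to 4.67.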

How the data were processed

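Expression was measured on 2 arrays of digoxigenin-labelled RNA, 1 per genotype. The authors deposited linear intensities, none of them negative. How these were scaled, background-corrected or filtered is not stated in the labels. Probes were named from the platform annotation: 14253 have 1 symbol, 243 several and 17944 none, and only the first were named. Because the 10th, 25th and 75th percentiles differed by -0.16, -0.12 and 0.15 (log2, limit 0.1), arrays were quantile normalised on the log2 scale. Values under the array median (1.03) were set to it. A gene with several probes took the brightest. Genes were counted at 2-fold, with no p-value, since 1 array per genotype allows none. Intervals of the SD between probes are chi-square intervals over genes. The endoderm genes, the 14 other lists and the rules were chosen with earlier results of these data known. Named genes were all 10 endoderm genes, every gene of the GATA, SoxF and albumin families, and up to 4 measured genes of each other list with the largest difference. Exceptions are stated where they occur. Genes were not named by likeness of pattern, since 2 arrays give 1 difference. Alternatives to the scaling were none, centring (on genes above the floor) and loess (span 0.3). Alternatives to the floor were the 25th percentile, the 75th percentile, none, and adding the floor as a pseudocount. Probes were also averaged, and 1.5-fold and 3-fold were tried. Subtracting chromosome medians and dropping genes of chromosomes 6, 8 and 11 were chosen after seeing the data. Gene order came from RefSeq (GRCm38.p6). The procedure was tested on simulated data, with differences placed only in brighter genes of 1 probe and with less noise than the SD between probes. That test does not show how the procedure handles dim genes. Python 3.11.15, pandas 2.3.3 and statsmodels 0.14.6 were used.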

Additional observations from a re-analysis of the deposited data

How the results depend on the processing

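The number of arrays limits the precision, and no replicate could be left out. No paired analysis was possible because each genotype has 1 array and the labels carry no replicate numbers. Of 56 recomputed differences of the endoderm genes, 0 turned sign. Only those under the other scalings or with chromosome medians subtracted could have turned. Of the 56, 4 moved by more than the SD between probes. Afp was -1.30 with a pseudocount equal to the floor. Fga was 3.70 with a 25th percentile floor, 0.37 with a 75th percentile floor and 4.67 without any floor. The count at least 2-fold higher was 2 with the values as deposited, 0 with a 75th percentile floor and 3 at 1.5-fold. The count at least 2-fold lower was 0 with a 75th percentile floor and 3 at 1.5-fold. With that floor 2 genes were measured, and with a 25th percentile floor 9 were, Fgb being the exception. The mean over probes changed nothing for the endoderm genes, which have 1 probe each. Counts over all genes were 647 higher and 571 lower, 1075 and 980 with a 25th percentile floor, 141 and 118 with a 75th percentile floor, 1080 and 982 without one, and 433 and 395 with the pseudocount. Of 448 recomputed counts and medians of lists, 61 moved by more than 1.5 times (counts) or the SD between probes (medians), and 11 medians turned sign, in the Nodal, other transcription factor, definitive endoderm and cardiac lists. The cause of these changes was not tested, beyond the fact that a higher floor leaves fewer genes measured.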

Other observations

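Genes that neighbour the endoderm genes in the genome were looked at for changes shared along the chromosome. Up to 3 protein-coding genes named on the arrays were taken on each side of the 6 measured endoderm genes, in the gene order of GRCm38.p6, a choice made after seeing the data. Of 33 such neighbours that are not among the 10 genes, 21 were measured. Of these 2 passed 2-fold, both of them lower, beside 5.97% lower and 6.76% higher over all measured genes. The median of the 21 was -0.09. The lower ones were Cd93, a gene of endothelium and myeloid cells near Foxa2 (2.39 and 0.604), and Gucy1a1, a guanylate cyclase subunit near Fga (2.13 and 0.902). Plrg1, a splicing factor gene next to Fgb, had 20.8 and 20.5. Of the 3 measured neighbours of Fga, 0 were at least 2-fold higher and 1 was at least 2-fold lower. On either side of Gata6 all 6 neighbours were measured, with a median of -0.37, while Gata6 itself was higher by 0.73. Thbd, the thrombomodulin gene that lies near Foxa2 and is made by parietal endoderm and endothelium, had 0.433 and 1.70, the direction opposite to Foxa2.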
